A study of Mus musculus and Rattus norvegicus with 37 samples.

Results

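The expression of 6 genes of ketone body metabolism and monocarboxylate transport was followed through 37 liver RNA libraries, 21 from mice and 16 from rats. The 6 were taken by name, as a list drawn up with earlier results of these data known, and no measured value enters the rule. They are the enzymes Acat1, Bdh1 and Oxct1 and the carriers Slc16a1 (MCT1), Slc16a6 (MCT7) and Slc16a7 (MCT2). All 6 were found among 47929 named genes in each of 2 mouse tables and among 28026 in each of 2 rat tables. In mice all 6 passed the minimum mean of 10 normalized counts and were tested, and in rats 4 were, because Oxct1 and Slc16a6 lay under it. A normalized count is the number of reads of a gene divided by the size factor that the authors gave the library.

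The mice were females on a C57BL/6J background, fed chow and sampled without fasting. They received 1 subcutaneous injection, at Zeitgeber time (ZT) 3, of saline or of LNA29, a mix of 2 locked nucleic acid inhibitors that block miR-29a and miR-29b/c, at 20 mg/kg each, and liver was taken at day 7. WT/Floxed mice pooled wild-type animals of 9 to 11 weeks with animals of 15 to 20 weeks that carry floxed Sirt1 without recombination, and gave 8 LNA29 and 5 saline libraries after the authors had left out 1 floxed saline mouse. Of these libraries, 4 LNA29 and 3 saline came from wild-type mice, and 4 LNA29 and 2 saline from floxed mice. L-Sirt1 KO mice, littermates of the floxed animals meant to lack the deacetylase SIRT1 in liver only, gave 4 libraries per treatment. Zucker Fatty rats (ZFR), males that are obese because they carry 2 mutant copies of the leptin receptor gene (fa/fa), were compared at 5.5 months with Zucker Lean rats (ZLR), 4 libraries each. In a separate experiment ZFR of 3 months received BT2, an inhibitor of the kinase that switches off branched-chain ketoacid dehydrogenase, at 20 mg/kg daily for 1 week, or the DMSO vehicle, with 4 libraries per group. The rats of 5.5 months were fed chow, and rat liver was taken in the fed state.

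Ketone bodies are made in liver mitochondria from the acetyl-CoA that fatty acid oxidation releases. Acetoacetyl-CoA is formed and turned into acetoacetate, and 3-hydroxybutyrate dehydrogenase (Bdh1) reduces most of this to 3-hydroxybutyrate, which leaves the cell and fuels brain, heart and muscle during fasting. Hepatocytes normally hold very little of the transferase that other tissues use to burn ketone bodies (Oxct1), so liver exports what it makes. Proton-coupled carriers of the SLC16 family move lactate, pyruvate and ketone bodies across the plasma membrane.

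miR-29a, miR-29b and miR-29c share the same seed, the bases by which a microRNA pairs with the 3′UTR of its target mRNAs. Their mature sequences, from RefSeq on mouse GRCm38.p6, are shown because LNA29 is directed at them. Capitals mark the seed, bases 2 to 8.
miR-29a-3p (chr6:31062673-31062694, minus strand): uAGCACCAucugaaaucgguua
miR-29b-3p (chr6:31063025-31063047, minus strand, and chr1:195037091-195037113, plus strand): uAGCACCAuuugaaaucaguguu
miR-29c-3p (chr1:195037600-195037621, plus strand): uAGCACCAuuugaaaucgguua

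The 7 bases TGGTGCT, which pair with the whole seed, were looked for on the coding strand in the annotated 3′UTRs of the 6 genes (GENCODE vM21, GRCm38). There were 4 matches in the 3′UTR of Bdh1, 1 in that of Oxct1 and 1 in that of Slc16a1. Of the Bdh1 matches 1 was the 8-base form TGGTGCTA, which adds an A after the 7 bases. Acat1, Slc16a6 and Slc16a7 had no match in these 3′UTRs. Of 21007 genes with an annotated 3′UTR, 13.8% held the 7 bases in any transcript and 2.99% held the 8 bases. The 30-base windows that hold the matches are shown because the LNA29 comparisons below bear on them. Capitals mark the match, and all lie in exonic 3′UTR on the plus strand.
Bdh1, 226 bases after the stop codon (chr16:31457309-31457338): cagggccaataTGGTGCTtctatctatctc
Bdh1, 797 bases after it (chr16:31457880-31457909): taggacaggatTGGTGCTAtgcttggtgct
Bdh1, 809 bases after it (chr16:31457892-31457921): ggtgctatgctTGGTGCTgcaaacagacca
Bdh1, 901 bases after it (chr16:31457984-31458013): gtgtgctcatgTGGTGCTcccacatgtggg
Oxct1, 553 bases after the stop codon (chr15:4154311-4154340): atatgctctgcTGGTGCTgacatcccacta
Slc16a1, 74 bases after the stop codon (chr3:104655785-104655814): tagtctaccagTGGTGCTcagtgcagacag

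**Figure D1:**
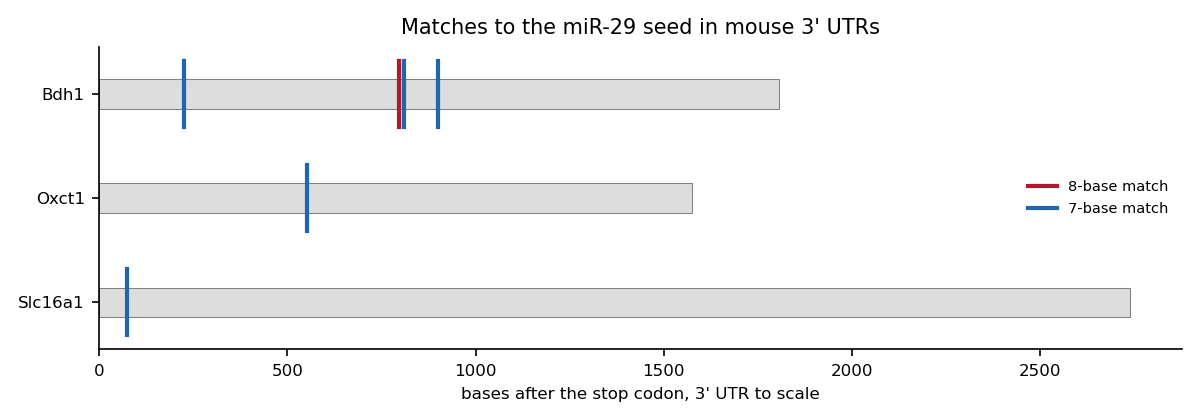
Position of each match to the miR-29 seed in the longest annotated 3′UTR that holds it, in bases after the stop codon, with the 3′UTR drawn to scale as a grey bar. Bdh1 holds 4 matches, 1 of them of 8 bases (red), in a 3′UTR of 1807 bases, and Oxct1 and Slc16a1 hold 1 match of 7 bases each (blue) in 3′UTRs of 1575 and 2740 bases.

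The depth of the libraries differed widely between the species. It was estimated from the step between low values, which is what 1 read is worth, because the deposited values were already divided by size factors. The mouse libraries held 42.6 to 78.0 M reads and the rat libraries 0.188 to 58.5 M, with 4 rat libraries under 0.5 M. Sirt1 itself read 535 to 617 normalized counts in the libraries that carry the L-Sirt1 KO label and 493 to 699 in the WT/Floxed libraries, and a gene total does not show which exons were read. The study also measured hepatic Sirt1 in both genotypes by RT-qPCR, which is not analysed here. The livers with that label are called KO-labelled throughout. Hepatocyte markers summed to between 5061260 and 8113480 normalized counts in every mouse library. Markers of some other cell types are given beside the results. In bulk liver, fewer cells of a type and less RNA per cell cannot be told apart. An index of the time of day (mean log2 of Arntl, Npas2 and Clock minus that of Nr1d1, Dbp and Per3) was 1.82 to 3.01 in LNA29 and -3.35 to 1.71 in saline KO-labelled livers, so treatment and index ran together there, and the saline liver at -3.35 (replicate 3) lay far below the other 3, at 0.79 to 1.71. It was -3.97 to -1.66 in ZFR and 0.82 to 4.75 in ZLR, which do not overlap either. In WT/Floxed mice (0.89 to 3.97 in LNA29 and -0.25 to 3.41 in saline livers) and in the BT2 experiment (-0.80 to 2.72 with BT2 and -3.45 to 0.60 with vehicle) the groups overlapped.

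Per kilobase of exon, the scale on which genes can be set side by side, the ketone body enzymes other than Oxct1 stood highest in WT/Floxed saline livers. Acat1 (ENSMUSG00000032047, chr9:53580522-53610382, minus strand) makes or splits acetoacetyl-CoA in mitochondria and read 6920 ± 622 normalized counts per kilobase (SD, n = 5). Bdh1 (ENSMUSG00000046598, chr16:31422280-31458901, plus strand) followed with 4016 ± 483. Slc16a1 (ENSMUSG00000032902, chr3:104638668-104658462, plus strand), the widely expressed lactate and ketone body carrier, read 1170 ± 64.6. The order of these 3 was the same in all 4 mouse groups.

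Slc16a7 (ENSMUSG00000020102, chr10:125219270-125389465, minus strand), a carrier with high affinity for pyruvate, came next with 476 ± 32.5 normalized counts per kilobase. Slc16a6 (ENSMUSG00000041920, chr11:109450855-109473598, minus strand), whose product carries ketone bodies out of fish hepatocytes, read 90.3 ± 24.1. Oxct1 (ENSMUSG00000022186, chr15:4026383-4155344, plus strand) read 84.9 ± 12.1, so these neighbours in the order did not differ beyond their spread. The same 6 genes took the same places among LNA29-treated WT/Floxed livers except that Oxct1 (92.5 ± 21.9, n = 8) stood above Slc16a6 (77.2 ± 27.1), again within the spread.

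The first comparison asked how inhibition of miR-29 changes liver RNA in WT/Floxed mice. Bdh1 and Slc16a1 rose, and the other 4 genes did not pass the criteria. A gene was called when limma gave p under 0.05 and an adjusted p under 0.2, its mean was above 50 normalized counts and its change exceeded 1.2-fold. By this rule 2 of the 6 genes were higher and 0 lower. Of all 15811 genes tested, 4.35% were called in either direction and 2.42% as higher. The median log2 difference of the 6 was 0.13, beside 0.0017 over all genes tested. The groups overlapped for each of the 6, as they did for most genes, 1.51% of which had groups that did not overlap. Of 8 Kupffer cell and macrophage markers 7 were lower under LNA29, with a median log2 difference of -0.43 and none called, and their sum was 7343 to 40601 normalized counts in LNA29 and 13479 to 23653 in saline livers. All 6 cholangiocyte markers were higher, with a median of 0.29 and none called, and their sum was 3426 to 6371 in LNA29 and 2872 to 4123 in saline livers. Of 8 hepatocyte markers 1 was called higher and 1 lower, and of 8 sinusoidal endothelial markers 6 were lower, 1 of them called. All 6 T and B cell markers and all 5 pancreatic acinar markers were lower, with none called. The part of these cells in the results was not tested.

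Bdh1 read 13489, 14646, 15155, 16346 and 18428 normalized counts in the 5 saline livers. In the 8 LNA29 livers it ran from 17573 over a median of 19890 to 24281. Of the 8, 6 exceeded the highest saline value, and the saline liver at 18428 was the one that reached into the LNA29 range. The log2 difference was 0.38 ± 0.096 (SE), a rise of 30.1% with a 95% interval on the log2 scale of 0.17 to 0.58. The limma adjusted p was 0.0729, and a two-sided exact permutation of the library labels gave p = 0.0039. The difference was positive within each of the 3 flow cells, at 0.36, 0.39 and 0.46, and within wild-type (0.33) and floxed mice (0.47) taken apart. Each flow cell held 2 or 3 of these LNA29 libraries and only 1 or 2 saline ones. The span of Bdh1, introns included, overlaps that of the predicted gene Gm15743 on the opposite strand over 1901 bases. Whether their exons overlap was not examined.

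Slc16a1 lay within a narrow band in saline livers, at 4926, 5000, 5111, 5203 and 5655 normalized counts. In LNA29 livers the lowest was 4836, the median 7126 and the highest 8608. Of the 8 LNA29 livers, 7 lay above every saline liver and 1, replicate 1, lay below all of them. The log2 difference was 0.45 ± 0.12, a rise of 36.7% with an interval of 0.19 to 0.71, a limma adjusted p of 0.0899 and an exact permutation p of 0.0101. It was 0.29, 0.36 and 0.72 within the 3 flow cells, 0.39 in wild-type and 0.53 in floxed mice. The span of Slc16a1, introns included, shares 2864 and 1403 bases with those of 2 predicted genes on the same strand (Gm43581 and Gm43585). Whether exons are shared, so that part of its reads could have been assigned to them, was not examined.

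**Figure D2:**
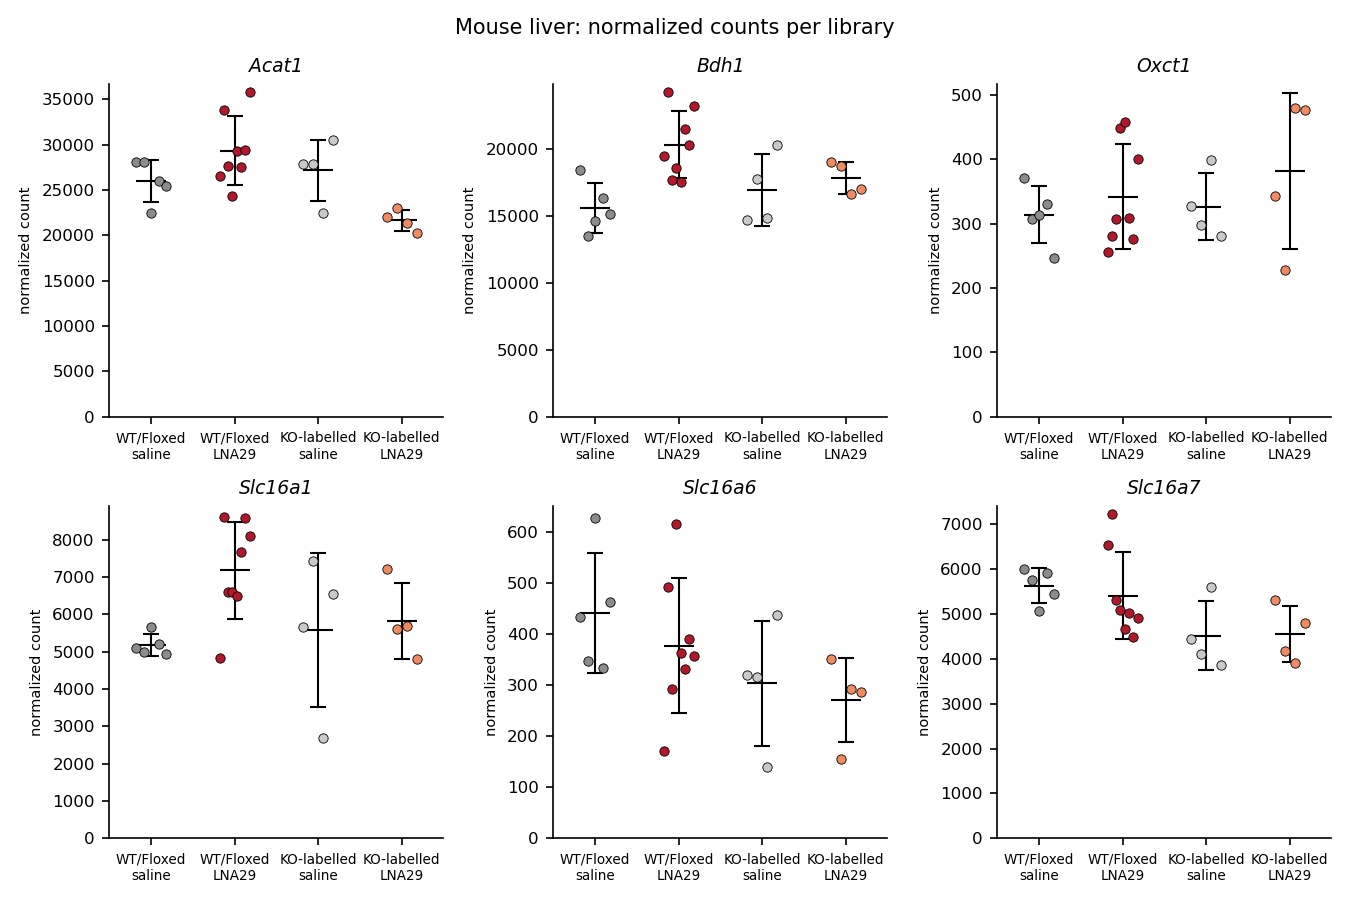
Normalized counts of the 6 genes in each mouse liver library (points), by genotype and treatment, with the group mean (bar) and SD (whiskers). Bdh1 and Slc16a1 were higher in WT/Floxed LNA29 livers, and Acat1 was lower in the 4 LNA29 KO-labelled livers than in 3 of the 4 saline livers.

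Acat1 did not pass. It read 22419, 25465, 25969, 28074 and 28101 normalized counts in saline livers and 24372 to 35850, with a median of 28468, in LNA29 livers. Its log2 difference was 0.17 with an interval of -0.031 to 0.37 (limma adjusted p = 0.482), so a rise of the size seen in Bdh1 lay just beyond that interval. Oxct1, which holds a seed match as Slc16a1 does, read 247 to 371 in saline and 255 to 458 in LNA29 livers. The Oxct1 difference was 0.10 (interval -0.24 to 0.44, adjusted p = 0.845), and it was 0.40 in floxed and -0.14 in wild-type mice.

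The remaining carriers gave negative differences that did not pass. Slc16a6 read 334 to 627 normalized counts in saline livers and 171 to 616 in LNA29 livers, a log2 difference of -0.27 with a wide interval of -0.80 to 0.26 (adjusted p = 0.709). The span of Slc16a6, introns included, overlaps that of Amz2 on the opposite strand over 1959 bases, and overlap of their exons was not examined. No source used here states that the counting used strand, so reads of any exons that overlap there cannot be told apart. Slc16a7 read 5059 to 6008 in saline livers and 4480 to 7233 in LNA29 livers, where 2 livers lay above and 4 below every saline liver. Its log2 difference was -0.08 (interval -0.31 to 0.16, adjusted p = 0.830).

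The calls over all genes tested were also counted by seed match, as a description with no test. Of 2200 tested genes with the 7 bases in a 3′UTR, 145 (6.59%) were higher and 24 (1.09%) lower, against 211 (1.87%) and 259 (2.30%) of 11277 genes with a 3′UTR but no match. Among 473 genes with the 8 bases 66 (13.95%) were higher. Of the 3 genes with a match described here, Bdh1 and Slc16a1 were called in WT/Floxed mice and Oxct1 was not. In the KO-labelled mice 88 of 2203 matched genes (3.99%) and 88 of 11330 unmatched genes (0.777%) were higher. There Bdh1, Slc16a1 and Oxct1 were not called (log2 differences of 0.09, 0.14 and 0.18, limma adjusted p of 0.811, 0.881 and 0.813).

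In KO-labelled mice the same injection was compared with saline, and 0 of the 6 genes passed in either direction. Of 15885 genes tested, 1.87% were called by the same rule, and at an unadjusted p under 0.05 limma gave 1 of the 6 and 1779 of all genes. The median log2 difference of the 6 was 0.052, beside -0.0027 over all genes tested. The sum of 8 Kupffer cell and macrophage markers was 13057 to 16402 in LNA29 and 16244 to 19527 in saline livers. Of the 8 markers 7 were lower (median -0.34 over the 8) and 2 of them were called. Of 8 sinusoidal endothelial markers 6 were lower, 1 of them called. The part of these cells in the results was not tested. The gene that reached the unadjusted threshold, Acat1, was lower under LNA29.

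Acat1 read 22490, 27855, 27911 and 30463 normalized counts in the saline livers. The LNA29 livers read 20294, 21374, 21978 and 23013. The LNA29 group lay below 3 of the saline livers, and the other one, replicate 3, fell within it. The log2 difference was -0.32 ± 0.10, a change of -19.9% with an interval of -0.55 to -0.092, an unadjusted p of 0.0109 and an adjusted p of 0.277 by limma, and an exact permutation p of 0.0571. Saline replicate 3 was also the liver with the lowest time-of-day index, and with the index as a covariate the Acat1 difference was -0.47 (adjusted p = 0.204). Without it the difference was -0.41 and passed, with an adjusted p of 0.115, and with sample quality weights in place of equal weights it was -0.38 with an adjusted p of 0.118. It was negative in each of the 3 flow cells, from -0.38 to -0.31, with 1 or 2 libraries per treatment in each.

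Bdh1 read 14713, 14884, 17788 and 20331 normalized counts in saline KO-labelled livers and 16649, 17009, 18707 and 19030 in LNA29 livers. The LNA29 values lay inside the saline range, and the log2 difference was 0.09 (interval -0.17 to 0.34, adjusted p = 0.811). The upper end of that interval lay below the value of 0.38 found in WT/Floxed mice. The direct test of the difference between the genotypes is given below.

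Slc16a1 read 2689, 5664, 6548 and 7425 normalized counts in the saline livers and 4791, 5613, 5691 and 7223 in the LNA29 livers. The value of 2689 came from saline replicate 3, and the groups overlapped. The log2 difference was 0.14 with an interval of -0.49 to 0.78 (adjusted p = 0.881), and it turned to -0.17 without that library (adjusted p = 0.718). With the time-of-day index as a covariate the log2 difference was -0.50 (limma adjusted p = 0.305).

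The other 3 genes did not pass either and their groups overlapped, as they did for most genes (6.95% of all genes tested had groups that did not overlap). Oxct1 read 282 to 400 normalized counts in saline and 228 to 479 in LNA29 livers, a log2 difference of 0.18 (interval -0.35 to 0.70). Slc16a6 read 140, the lowest value again in saline replicate 3, to 437 in saline and 156 to 352 in LNA29 livers, a difference of -0.11 (interval -0.90 to 0.68). Slc16a7 read 3874 to 5611 and 3909 to 5310, a difference of 0.02 (interval -0.29 to 0.32).

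Whether the response differed between the genotypes was tested as an interaction, the log2 response in KO-labelled mice minus that in WT/Floxed mice, with each response taken within its own table. At an adjusted p under 0.2, 0 of the 6 genes passed and 0.0449% of all 15601 genes tested did. At an unadjusted p under 0.05 limma gave 1 of the 6, Acat1, and 1426 of all genes tested. The Acat1 responses were -0.32 and 0.17, and their difference was -0.49 ± 0.14 with an interval of -0.78 to -0.19 (unadjusted p = 0.0026, adjusted p = 0.302). Without KO-labelled saline replicate 3 the adjusted p was 0.120, and without WT/Floxed LNA29 replicate 1 or 4 it was 0.192 and 0.188, so the side of the threshold depended on single libraries. For Bdh1 the difference was -0.29 (interval -0.61 to 0.027, adjusted p = 0.587) and for Slc16a1 -0.31 (interval -0.91 to 0.30, adjusted p = 0.806). The responses of Bdh1 and Slc16a1 were thus not shown to differ between the genotypes.

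**Figure D3:**
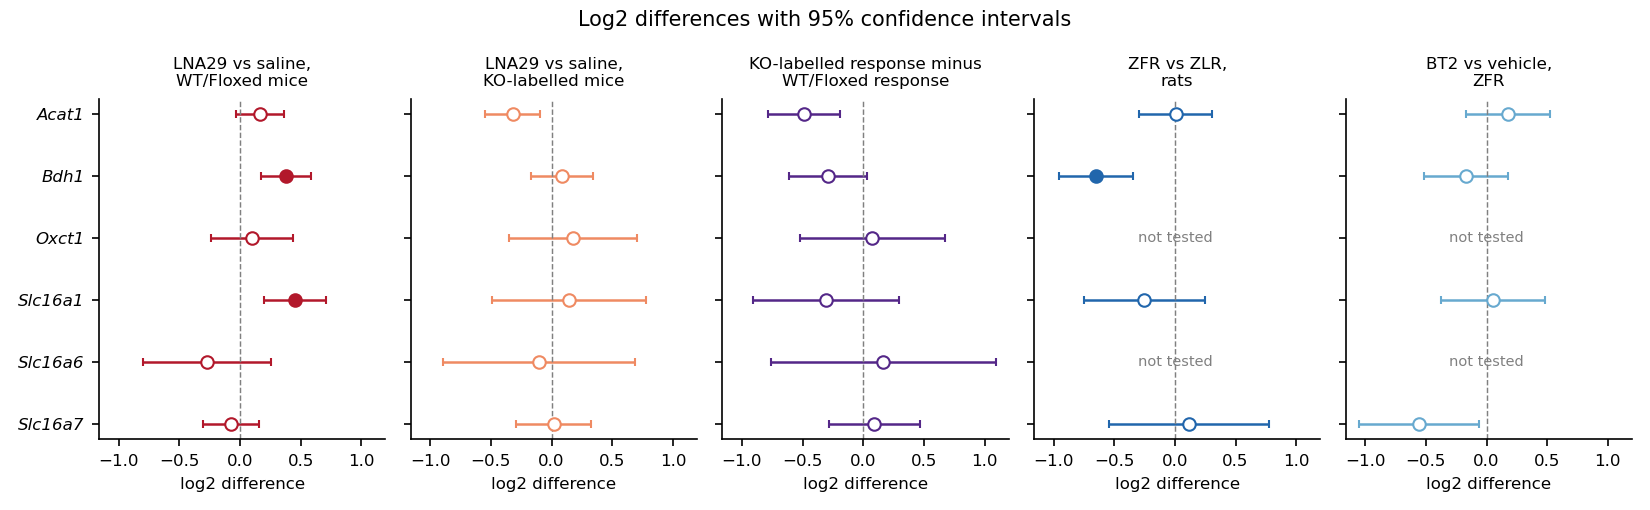
Log2 difference of each gene in each comparison (points) with its 95% confidence interval from limma (lines), filled where the gene was called. Bdh1 and Slc16a1 were called in WT/Floxed mice, Bdh1 was called lower in ZFR than in ZLR, and no gene was called in the comparison of the genotypes.

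Of 7 further enzymes of ketone body metabolism, 0 were called in WT/Floxed mice and 1 in KO-labelled mice. In each, 4 were tested, with a median log2 difference of -0.25 in WT/Floxed and -0.19 in KO-labelled mice, beside 0.0017 and -0.0027 over all genes tested. In the KO-labelled mice all 4 values were negative. Acaa2, a mitochondrial thiolase of fatty acid oxidation, read 51566, 53632, 54653 and 55266 normalized counts in saline livers and 43747, 44085, 44165 and 46415 in LNA29 livers. These groups did not overlap, and Acaa2 fell by 0.27 ± 0.071 on the log2 scale (limma adjusted p = 0.189). That call was lost in 7 of the 8 fits that left out 1 library, with adjusted p from 0.170 to 0.443. In WT/Floxed mice the gene of that list with the largest difference was Aacs, the cytosolic enzyme that turns acetoacetate back into its CoA ester, at -0.89 ± 0.43 (adjusted p = 0.395).

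Among 16 further monocarboxylate and pyruvate carriers and their membrane partners, 11 were tested in WT/Floxed and 13 in KO-labelled mice. None was called in either. At an unadjusted p under 0.05 limma gave 2 and 0 of them, beside 2105 of 15811 and 1779 of 15885 over all genes tested. The median log2 differences of these carriers and partners were -0.015 and -0.10. The largest differences were those of the lactate exporter Slc16a3 (WT/Floxed mice, -0.75, adjusted p = 0.277) and of Slc5a8, a sodium-coupled carrier, in KO-labelled mice (0.56, adjusted p = 0.706).

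Of 11 genes that govern fatty acid entry into mitochondria and ketone body synthesis, 1 was called in WT/Floxed mice and 0 in KO-labelled mice. At an unadjusted p under 0.05 limma gave 2 of the 11 and 2105 of all 15811 genes tested in WT/Floxed mice. There 7 of the 11 values were positive with a median of 0.055. In KO-labelled mice limma gave 4 at that threshold (Cpt1a, Cpt2, Fgf21 and Mlycd, named after their values were seen) and 1779 of all 15885 genes tested. There 10 of the 11 were negative with a median of -0.24. Cpt1a and Cpt2, which carry fatty acids into mitochondria, read -0.59 and -0.37, and Mlycd, which breaks down the malonyl-CoA that holds Cpt1a back, -0.39 (adjusted p of 0.444, 0.393 and 0.291). Fgf21, a hepatokine of fasting and other nutrient stress, read 16.6 to 201 normalized counts in WT/Floxed saline livers and 72.8 to 761, with a median of 250.2, in LNA29 livers. Of the 8 LNA29 livers, 5 exceeded every saline liver, and the log2 difference was 1.90 ± 0.62 (adjusted p = 0.171), a call kept in 4 of the 13 fits that left out 1 library. In KO-labelled mice, Fgf21 read 80.0, 199, 476 and 1034 in saline and 18.6, 66.5, 73.3 and 76.4 in LNA29 livers, groups that did not overlap. That difference, -2.51 ± 0.74, did not pass (adjusted p = 0.247), nor did the difference between the genotypes, -4.41 ± 1.05 (adjusted p = 0.231). These did pass in some alternatives. The difference in KO-labelled mice was called in 2 of 8 (quality weights and the time-of-day index, adjusted p from 0.0986 to 0.293 over the 8), and that between the genotypes in 3 of 9 (these 2 and the wild-type or floxed background as a covariate, adjusted p from 0.0417 to 0.813 over the 9). In the genotype comparison the largest differences of the other lists were 0.72 for Aacs (adjusted p = 0.802) and -1.14 for Slc16a13 (adjusted p = 0.609).

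**Figure D4:**
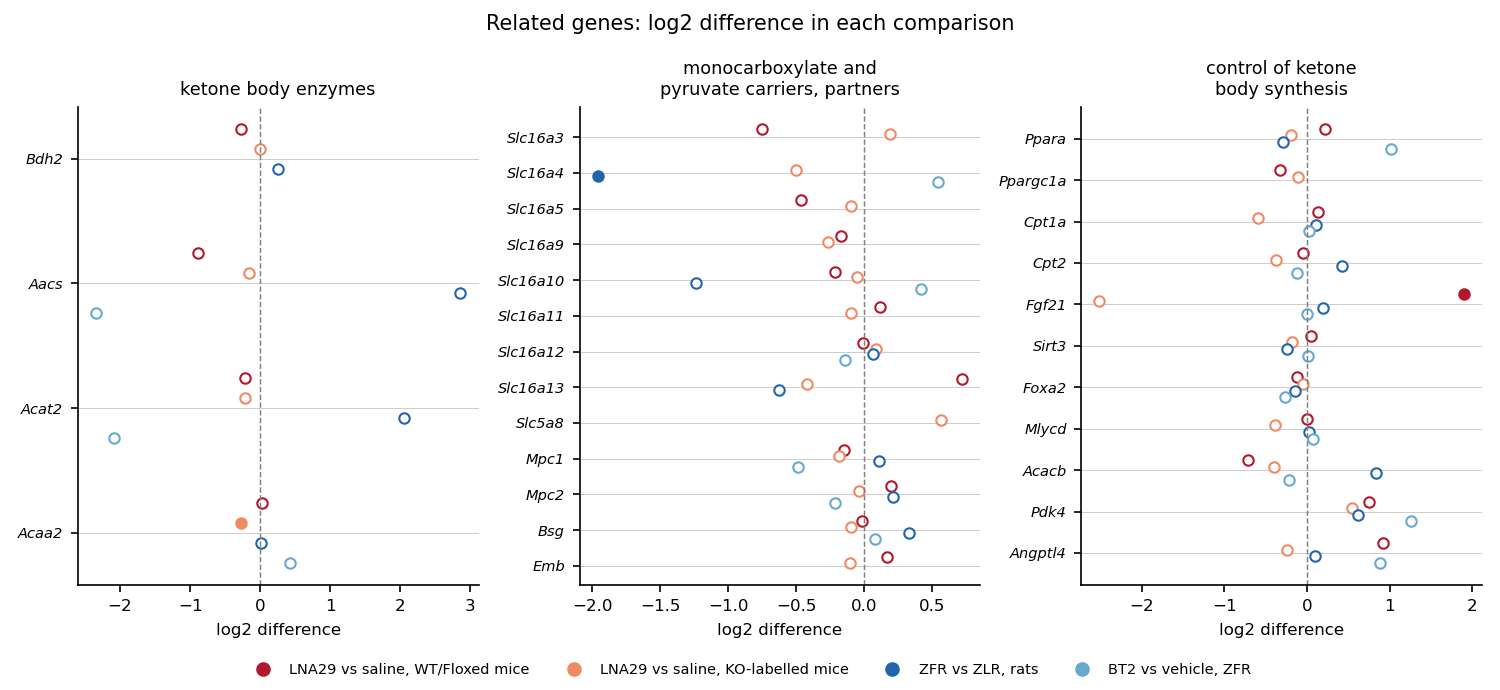
Log2 difference of each tested gene of 3 related lists in the 2 mouse comparisons of LNA29 with saline (red and orange) and the 2 rat comparisons (dark and light blue), filled where the gene was called. Acaa2 was called in KO-labelled mice, Fgf21 in WT/Floxed mice, and Slc16a4 in ZFR against ZLR.

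The genes whose levels ran most closely with the 6 over the 13 WT/Floxed libraries are given as a description, since these libraries share treatment groups and flow cells. Bdh1 ran most closely with Nlrp12 (Pearson r = 0.947) and Adgrv1 (0.919), which had r of 0.469 and 0.654 with it over the 8 KO-labelled libraries. Slc16a1 ran with Spon2 (0.957), with r of 0.711 in the 8 libraries.

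For the other 4 genes, too, the closest partners in WT/Floxed livers had a lower r in the second set. Acat1 ran with Taf1a (0.898, then 0.170) and Gpsm1 (0.883, then -0.315). Oxct1 ran with the splicing and polyadenylation factors Srsf10 (0.943, then 0.411) and Cpsf6 (0.899, then 0.415). Slc16a6 ran with Prr5l (0.894, then 0.258) and Casp4 (0.870, then -0.173), and Slc16a7 with Tdrd3 (0.903, then 0.044) and Gm16439 (0.903, then 0.256).

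In rats the first comparison set the obese liver against the lean one. Bdh1 was lower in ZFR than in ZLR, and the other 3 tested genes did not pass. In rats a gene was called at a limma adjusted p under 0.05. By that rule 1 of the 4 tested genes was lower and 0 were higher, and 4.25% of 8633 genes tested were called in either direction. The median log2 difference of the 4 was -0.12, beside 0.070 over all genes tested. Of 7 tested hepatocyte markers 6 were lower in ZFR, 3 of them called, with a median log2 difference of -0.20. Their sum was 176998 to 268694 normalized counts in ZFR and 223992 to 288849 in ZLR. Sums of 5 pancreatic acinar markers did not overlap (4.18 to 9.41 normalized counts in ZFR and 15.4 to 41.8 in ZLR), and 3 red blood cell markers summed to 394 to 905 in ZFR and 163 to 485 in ZLR. In the ZLR libraries of 0.188 and 0.189 M reads, 1 read is worth 10.5 and 10.4 normalized counts. Of 7 tested sinusoidal endothelial markers 1 was called higher and 5 were lower. The part of these cell types in the results was not tested.

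Bdh1 read 537, 558, 606 and 620 normalized counts in ZLR and 295, 339, 418 and 442 in ZFR. All 4 ZFR lay below all 4 ZLR, and 14.5% of all genes tested had groups that did not overlap. The log2 difference was -0.65 ± 0.14, a change of -36.3% with an interval of -0.96 to -0.34 (limma adjusted p = 0.0287, exact permutation p = 0.0286, the smallest that 4 against 4 allows). It was -0.86 and -0.44 within the 2 flow cells, each with 2 libraries per group. The time-of-day index did not overlap between ZFR and ZLR, and with it as a covariate the Bdh1 difference was -0.81 with an adjusted p of 1, a fit in which 2 of all genes tested passed. Without the 2 ZLR libraries under 0.5 M reads the difference was -0.64 (adjusted p = 0.0726), and it lay between -0.74 and -0.54 when any 1 library was left out, with 4 of these 8 fits past the threshold. The call was lost without ZFR replicate 1 or 2 or ZLR replicate 2 or 4, at adjusted p of 0.0694, 0.0896, 0.0801 and 0.0601.

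Acat1 was level between ZLR (480, 516, 548 and 579 normalized counts) and ZFR (430, 508, 562 and 654), with a log2 difference of 0.01 and an interval of -0.29 to 0.31. That interval did not reach the value of Bdh1. Slc16a1 read 94.0, 119, 147 and 187 in ZLR and 87.7, 106, 123 and 133 in ZFR, a difference of -0.25 (interval -0.75 to 0.25, adjusted p = 0.593). Slc16a7 read 36.7, 66.6, 90.0 and 92.1 in ZLR and 57.7, 71.0, 72.1 and 94.9 in ZFR, a difference of 0.11 (interval -0.55 to 0.77, adjusted p = 0.857). The Slc16a1 value of 94.0 and the Slc16a7 value of 36.7 came from the ZLR library of 0.189 M reads. Those of 147 and 66.6 came from the ZLR library of 0.188 M reads. In these libraries 1 read is worth 10.4 and 10.5 normalized counts.

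Oxct1 and Slc16a6 lay under the minimum mean in rat liver and are given by library. In the deep libraries, ZFR replicate 1 and ZLR replicates 1 and 2, Oxct1 stood for about 163, 214 and 96 reads. Slc16a6 stood for about 61, 41 and 45 reads in them. In ZLR replicates 1 to 4 Oxct1 was 8.20, 4.15, 0 and 0 normalized counts, and in ZFR 5.25, 9.41, 4.18 and 4.67. The 2 ZLR libraries listed at 0 were those of 0.188 and 0.189 M reads, in which 1 read is worth 10.5 and 10.4 normalized counts, so a level like that of the other ZLR could not be seen in them. Slc16a6 was 1.56, 1.95, 0 and 0 in ZLR and 1.97, 3.55, 0 and 4.69 in ZFR, and neither gene was tested.

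Of the related genes in ZFR and ZLR, 1 passed. Slc16a4 (MCT5), an orphan carrier of the family, read 56.8, 58.9, 83.5 and 126 normalized counts in ZLR and 15.3, 18.8, 20.2 and 22.8 in ZFR. The log2 difference was -1.96 ± 0.28 (limma adjusted p = 0.0042). The ZLR values of 83.5 and 126 came from the libraries of 0.189 and 0.188 M reads. In these 1 read is worth 10.4 and 10.5 normalized counts. The call was kept without the libraries under 0.5 M reads. Leaving out any 1 of the 8 libraries kept the call, and with the time-of-day index as a covariate it was -0.85 (adjusted p = 1). Aacs had the largest difference among the ketone body enzymes, at 4.10, 9.20, 10.5 and 0 in ZLR replicates 1 to 4 and 36.4, 31.8, 27.2 and 46.7 in ZFR, with a log2 difference of 2.86 ± 0.74 that did not pass (adjusted p = 0.0674). The values of 10.5 and 0 came from the libraries of 0.188 and 0.189 M reads, where they stand for 1 read and none. Over 10 alternatives the Aacs difference ran from 0.20 to 2.86, and it was called in 4, among them the one without libraries under 0.5 M reads (adjusted p from 0.0012 to 1 over the 10). In the list on the control of ketone body synthesis it was Acacb, the carboxylase whose product holds back fatty acid entry into mitochondria (0.84 ± 0.24, adjusted p = 0.0895). The counts were 0 of 4, 1 of 7 and 0 of 10 tested genes in the 3 lists.

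**Figure D5:**
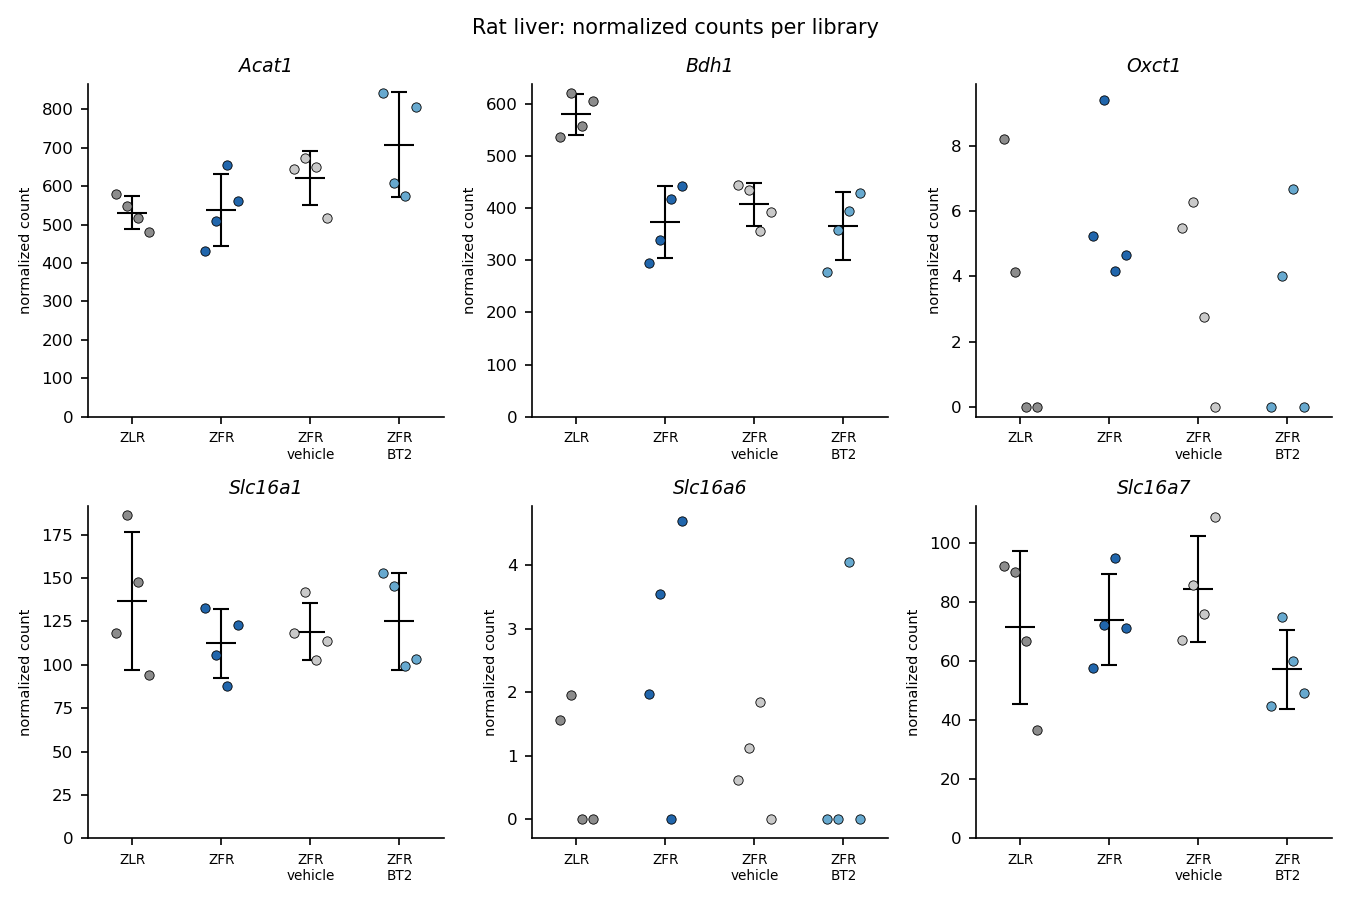
Normalized counts of the 6 genes in each rat liver library (points), with the group mean (bar) and SD (whiskers) for the 4 tested genes. Bdh1 was 295 to 442 in ZFR and 537 to 620 in ZLR, and several libraries were listed at 0 for Oxct1 and Slc16a6.

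In the second rat experiment BT2 was compared with vehicle in ZFR, and 0 of the 4 tested genes passed. No gene passed in the whole table (0% of 8405 tested), and at an unadjusted p under 0.05 limma gave 332 genes, 1 of them among the 4. Groups that did not overlap were seen for none of the 4 and for 2.96% of all genes. The median log2 difference of the 4 was -0.057, beside 0.0061 over all genes tested.

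Slc16a7 was the gene under the unadjusted threshold. It read 67.2, 75.8, 85.7 and 109 normalized counts with vehicle and 44.8, 49.1, 60.0 and 74.9 with BT2. Of the BT2 livers 3 lay below every vehicle liver, and the log2 difference was -0.56 ± 0.22 (interval -1.05 to -0.061, unadjusted limma p = 0.0311, adjusted p = 0.898, exact permutation p = 0.0571). The vehicle liver at 109 was that of 0.193 M reads, and without it the difference was -0.43.

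Acat1 read 516, 644, 651 and 672 normalized counts with vehicle and 574, 607, 805 and 843 with BT2, a log2 difference of 0.18 (interval -0.17 to 0.52). Bdh1 read 357, 392, 434 and 445 with vehicle and 278, 359, 395 and 430 with BT2, a difference of -0.17 (interval -0.51 to 0.17). Slc16a1 read 103, 114, 118 and 142 and then 99.1, 103, 146 and 153, a difference of 0.05 (interval -0.37 to 0.48). The adjusted p was 0.898 or above for all 3.

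With vehicle, replicates 1 to 4 of Oxct1 were 5.48, 6.27, 2.75 and 0 normalized counts, and with BT2 0, 4.00, 6.69 and 0. Slc16a6 was 0.61, 1.13, 1.84 and 0 with vehicle and 0, 0, 4.04 and 0 with BT2. The value of 4.04 stood for about 3 reads. The related genes gave 0 calls of 3, 6 and 10 tested in the 3 lists, with the largest differences in Aacs (-2.34), Slc16a4 (0.54) and Pdk4, the kinase that holds pyruvate dehydrogenase off (1.26), each at an adjusted p of 0.898. The ZFR in the 2 rat experiments differed in age and their tables were normalized apart, so their levels were not compared.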

How the data were processed

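Poly(A)+ RNA libraries were sequenced and processed by the authors with STAR, Salmon and DESeq2 on mm10 (mouse) and rn6 (rat), per the labels and the study's methods. The deposited values are a signal, gene counts divided by size factors by the authors, in 1 table per comparison. They are not whole numbers and low values were whole multiples of 1 read (tolerance 0.01) for 69.3% to 90.3% of cases, so count models were not used. Entries without a gene name (381 mouse, 201 rat) and with repeated names (130 and 4523) were left out. Values were tested as log2(value + 1) with limma 3.58.1 (trended moderated fit, Benjamini-Hochberg adjustment over all genes with a mean of at least 10), which understates the change of low genes. The criteria for mice follow the study's methods. Groups came from the labels. Each library carries an animal identifier of its own in the labels, so libraries were taken as separate animals. The genes, related lists and tests were chosen with earlier results of these data known. The genes named are the 6, every called gene of the 3 related lists, the gene with the largest difference per list and comparison, and the 2 genes most correlated with each of the 6. Some genes under this rule are not reported here, and list counts leave them out. Same-numbered libraries did not deviate together (correlations -0.281 to 0.241 in WT/Floxed mice), so replicate numbers name libraries only. Alternatives were a pseudocount of 10, no minimum, TMM scaling, sample quality weights, covariates (flow cell, replicate block, time-of-day index, background), other thresholds, precision weights, and each library left out in turn. The fits were tested on simulated data in which a gene had the same spread in every library. The unequal depth of the rat libraries was therefore not simulated. Intervals and floors cover the spread or counting error only.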

Additional observations from a re-analysis of the deposited data

Results flagged for a closer look

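Among 48 groups of 4 to 8 libraries examined for the 6 genes, 1 held a library far from the rest of its group, and chance alone gives about 1 in 20. In ZFR given BT2, Slc16a6 was 4.04 normalized counts in replicate 3 and 0 in the other 3 libraries. That library held 1.53 M reads, and the other 3 held 0.383, 0.570 and 1.52 M. The part of depth in this was not tested.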

How the results depend on the processing

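In WT/Floxed mice Bdh1 and Slc16a1 passed in 7 of 9 alternatives each and in all 13 fits that left out 1 library. At an adjusted p under 0.05 instead, 0 of the 6 genes passed (0.38 and 0.45 at adjusted p of 0.0729 and 0.0899). With a replicate block, which uses the 5 shared numbers only, 0 passed (Bdh1 0.32, Slc16a1 0.33) and Slc16a7 was 0.017. The replicate numbers do not pair these libraries. In KO-labelled mice sample quality weights gave 1 call (Acat1, -0.38), Bdh1 at -0.012 and Slc16a1 at -0.016, and the time-of-day index as a covariate gave Bdh1 -0.0013 and Slc16a1 -0.50. Leaving out 1 library gave 0 to 1 calls, with Acat1 at -0.41 to -0.26, Slc16a1 at -0.17 to 0.31, Slc16a6 at -0.44 to 0.14 and Slc16a7 at -0.061 to 0.13.

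For the difference between genotypes, quality weights and the time-of-day index gave 1 call each (Acat1, -0.57 and -0.52), the replicate block gave Slc16a7 -0.00041, and the index gave Slc16a6 -0.22. Leaving out 1 library gave 0 to 1 calls, with Acat1 at -0.58 to -0.43, Oxct1 at -0.054 to 0.30 and Slc16a6 at -0.17 to 0.41.

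In ZFR against ZLR the call of Bdh1 was lost, to 0, with no minimum mean (-0.65), TMM scaling (-0.66), the replicate block (-0.65), the index (-0.81) and, chosen after the depths were seen, without libraries under 0.5 M reads (-0.64). Acat1 turned negative with quality weights (-0.21), the index (-0.45), precision weights (-0.0034) and without those libraries (-0.081), and Slc16a7 likewise (-0.44, -1.54, -0.088 and -0.32). Leaving out 1 library gave 0 to 1 calls, with Bdh1 at -0.74 to -0.54, Acat1 at -0.091 to 0.11 and Slc16a7 at -0.17 to 0.26. With BT2, Slc16a1 was -0.050 to 0.16 when 1 library was left out. Where a call changed, the cause was not tested. Over all genes tested the calls in WT/Floxed mice ranged from 56 with the replicate block to 1308 with quality weights, beside 688. Leaving out libraries under 0.1 of the median depth was not run, since none lies there. Depth limits Oxct1 and Slc16a6 in the shallower rat libraries, and the low values of other genes there as well.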
